A study of Mus musculus with 6 samples.

Results

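The 10 genes described here encode proteins that contracting skeletal muscle is known to release, or that have been named as exercise-related secreted factors of muscle. They are the interleukins Il6 and Il15, the stress hormones Fgf21 and Gdf15, the irisin precursor Fndc5, the meteorin-like factor Metrnl, the peptides Apln (apelin) and Ostn (osteocrin, also called musclin), and the matrix proteins Sparc and Dcn (decorin). The rule names them one by one and sets no threshold on a measured value, though earlier results of these data were known when they were chosen. They stand among 25005 genes and transcripts that could be tested on the arrays. All 10 had at least 1 probe, with 14 probes in all, and 9 of the 10 passed the filter on dim probes. RNA came from the quadriceps of 9-week-old male AR97Q mice, of which 3 had been exercised and 3 had stayed sedentary. Both groups carry the same transgene on a C57BL/6J background, and the line models spinal and bulbar muscular atrophy. The promoter of the transgene is not given in the sources used here. Exercised mice ran in a forced wheel at a speed of 5 m/min, with daily sessions of 60 min on 5 days of each week. The regimen began at 5 weeks of age and lasted 4 weeks, and tissue was taken the day after the last bout. There were no wild-type arrays, so the comparison is of exercise against no exercise within the disease model.

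Myokines are secreted proteins through which working muscle signals to itself and to other organs. Il6 is the classical example and is released during long bouts of contraction, whereas Fndc5 is a membrane protein from which the hormone irisin is cut, and is known as a target of the coactivator Ppargc1a. Ostn binds the natriuretic peptide clearance receptor Npr3 and so spares natriuretic peptides from removal. Fgf21 and Gdf15 are hormones of cellular stress, known to be switched on by the transcription factor Atf4, and act through Klb with Fgfr1 and through Gfral with Ret. Array values measure RNA in the muscle and not the secreted protein.

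The starts of 2 members differ in sequence, and they are shown because Fndc5 passed the test and Fgf21 was not detected while its known regulator Atf4 rose. Each is the stretch of 250 bases before the annotated start, on the gene's strand, from RefSeq with build GRCm38.p6. The Fndc5 window is chr4:129136749-129136998 on the plus strand, with matches to the GC box GGGCGG on either strand in capitals. The Fgf21 window is chr7:45615491-45615740 on the minus strand, with the ATF4 element TGATGNAA, read on either strand, and the TATA box TATAAA in capitals.
Fndc5: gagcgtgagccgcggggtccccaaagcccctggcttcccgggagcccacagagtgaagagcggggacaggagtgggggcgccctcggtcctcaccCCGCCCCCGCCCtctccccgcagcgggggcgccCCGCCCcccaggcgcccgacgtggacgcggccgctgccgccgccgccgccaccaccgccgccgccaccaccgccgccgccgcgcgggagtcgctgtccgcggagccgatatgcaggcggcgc
Fgf21: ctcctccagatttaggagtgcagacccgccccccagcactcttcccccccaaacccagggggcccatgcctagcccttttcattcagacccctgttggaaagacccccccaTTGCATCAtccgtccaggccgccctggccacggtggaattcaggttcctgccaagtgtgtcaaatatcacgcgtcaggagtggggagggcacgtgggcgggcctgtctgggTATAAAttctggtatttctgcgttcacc
The Fndc5 window is 80.8% G and C, above 99.0% of the 32851 promoter windows of that length, whose median is 52.4%. It holds 3 matches to the GC box, 2 of them next to each other, and none to the TATA box, the ATF4 element or the E-box CANNTG. The Fgf21 window is 59.6% G and C and holds 1 ATF4 element, 1 TATA box close to the start, 2 E-boxes and 3 GC boxes that are not capitalised. Over all windows, 32.7% hold a GC box, 3.45% the ATF4 element, 12.4% the TATA box and 66.2% an E-box. Promoter windows were found for 7 of the 10 members, and not for Il15, Ostn and Dcn. Of the windows of Il6, Gdf15, Metrnl, Apln and Sparc, none holds the ATF4 element or the TATA box. No window of a member holds the estrogen-related receptor element TNAAGGTCA, which 1.14% of all windows hold. These matches describe letters and were not tested for use in muscle.

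Fndc5 and Ostn were the members that rose with exercise, and no member fell. On the scale used throughout, which is log2 of the processed signal minus the 75th percentile of the array, Fndc5 was at 4.25, 4.43 and 4.63 on the exercise arrays and at 3.96, 3.10 and 3.33 on the sedentary arrays. The groups did not overlap, and the sedentary mouse at 3.96 was nearest to the exercised mice. The difference was 0.97 on the log2 scale (SE 0.24, 95% confidence interval 0.40 to 1.54, n = 3 and 3), a 1.96-fold level, with an adjusted p of 0.041 from limma over all genes tested. Ostn was at -1.14, -1.62 and -1.30 after exercise and at -1.99, -2.57 and -2.05 without it. Every exercised mouse was above every sedentary mouse. The Ostn difference was 0.85 (SE 0.20, 95% confidence interval 0.37 to 1.34), a 1.80-fold level, with an adjusted p of 0.038 from limma. Neither reached an absolute log2 fold change of 1, which the methods of the study ask of a differentially expressed gene, so 0 members met that rule.

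**Figure D1:**
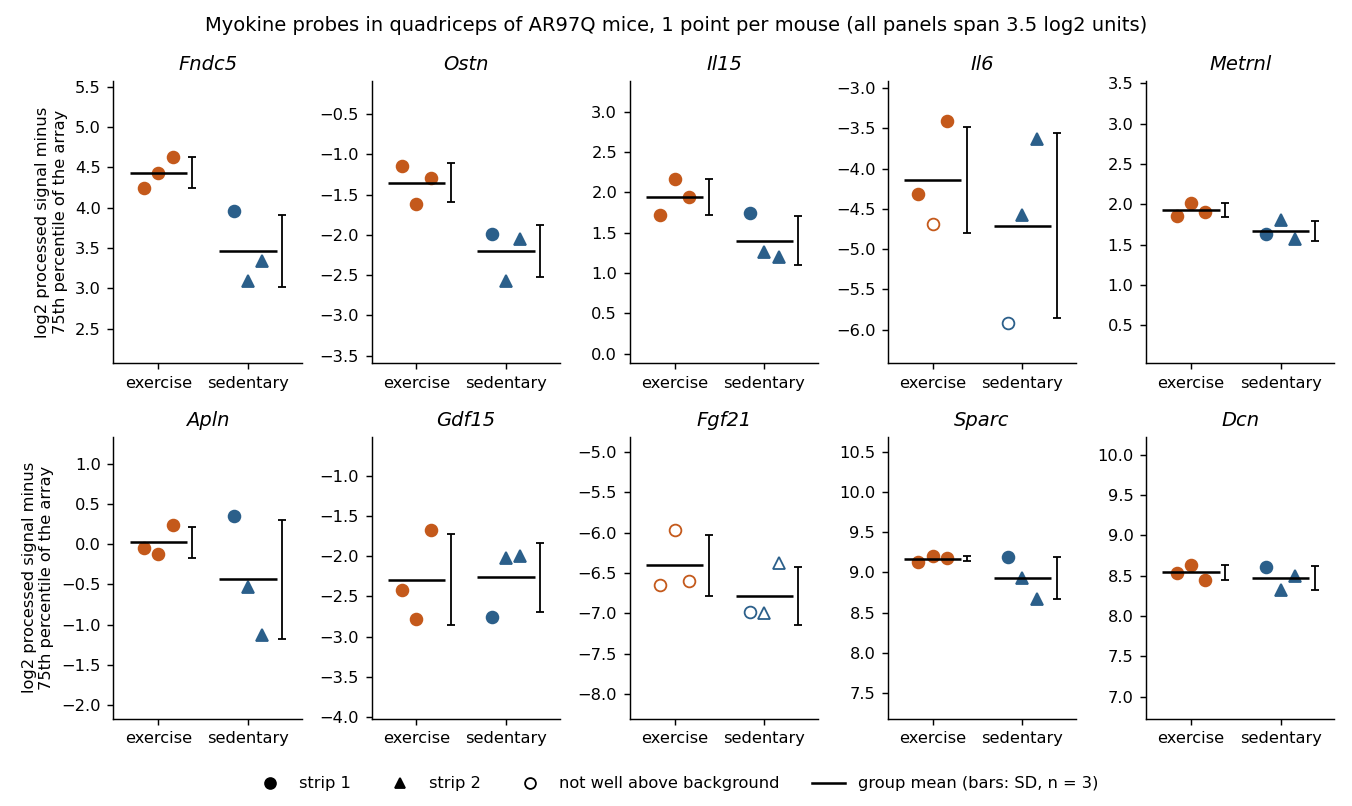
Level of each member in each mouse, as log2 processed signal minus the array's 75th percentile, with group means and SD (n = 3). Panels have different centres and the same height. Filled and open symbols are signals well above background and not. Circles and triangles are strips 1 and 2, as read from the file headers. Fndc5, Ostn and Metrnl are the panels in which the groups do not overlap, and all Fgf21 symbols are open.

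Of the 9 members tested, 8 had a difference above 0, 2 passed the test upwards and 0 downwards. Over all 25005 genes and transcripts, 11.5% passed upwards and 6.12% downwards. The median difference of the 9 members was 0.46, against 0.03 over everything tested. In 3 members the exercised mice all lay above the sedentary mice and in 0 they all lay below, while 25% and 18.2% of all genes and transcripts did so. These shares depend on how arrays are put on 1 scale, since the 75th percentile of the signal spanned 251 to 257 in exercised mice and 310 to 384 in sedentary mice. With no scaling the median difference of all genes is -0.45, with the deposited value table it is -0.13 and with the array median 0.11. The split of all calls, 2868 higher and 1530 lower here, became 1172 higher and 3201 lower with the deposited table and 617 higher and 11280 lower with no scaling. Fndc5 and Ostn stayed above 0 under each of the 5 other scalings, between 0.50 and 1.06 for Fndc5 and between 0.38 and 0.94 for Ostn. Fndc5 lost its call with quantile normalization, no scaling and the deposited table, and Ostn with no scaling and the deposited table.

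The barcode entry in the file headers gives each array a number, 1 or 2, read here as its strip on the slide. Whether all arrays share 1 slide was not checked. All 3 exercise arrays and sedentary replicate 1 lie in the first strip, and sedentary replicates 2 and 3 in the second. Against sedentary replicate 1 alone, in the same strip, the mean exercise level was higher by 0.48 for Fndc5 and by 0.64 for Ostn. With the strip as a block the adjusted p was 0.263 for Fndc5 and 0.293 for Ostn, and that fit called 0 genes higher and 3 lower of all tested. Leaving out any array other than sedentary replicate 1 also ended both calls, with adjusted p from limma between 0.064 and 0.119, while the differences stayed at 0.79 to 1.06 for Fndc5 and 0.67 to 0.98 for Ostn. Each of those 5 fits called at most 1 of the 25005 genes and transcripts, so the loss is shared by nearly all genes. Without sedentary replicate 1 the calls were Fndc5 at 1.22, Ostn at 0.96, Il15 at 0.71 and Apln at 0.85. That fit sets exercise arrays of the first strip against sedentary arrays of the second, so exercise and strip cannot be told apart in it. It called 3476 genes and transcripts higher and 2060 lower. Within the first strip the difference was 0.19 for Il15 and -0.32 for Apln.

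**Figure D2:**
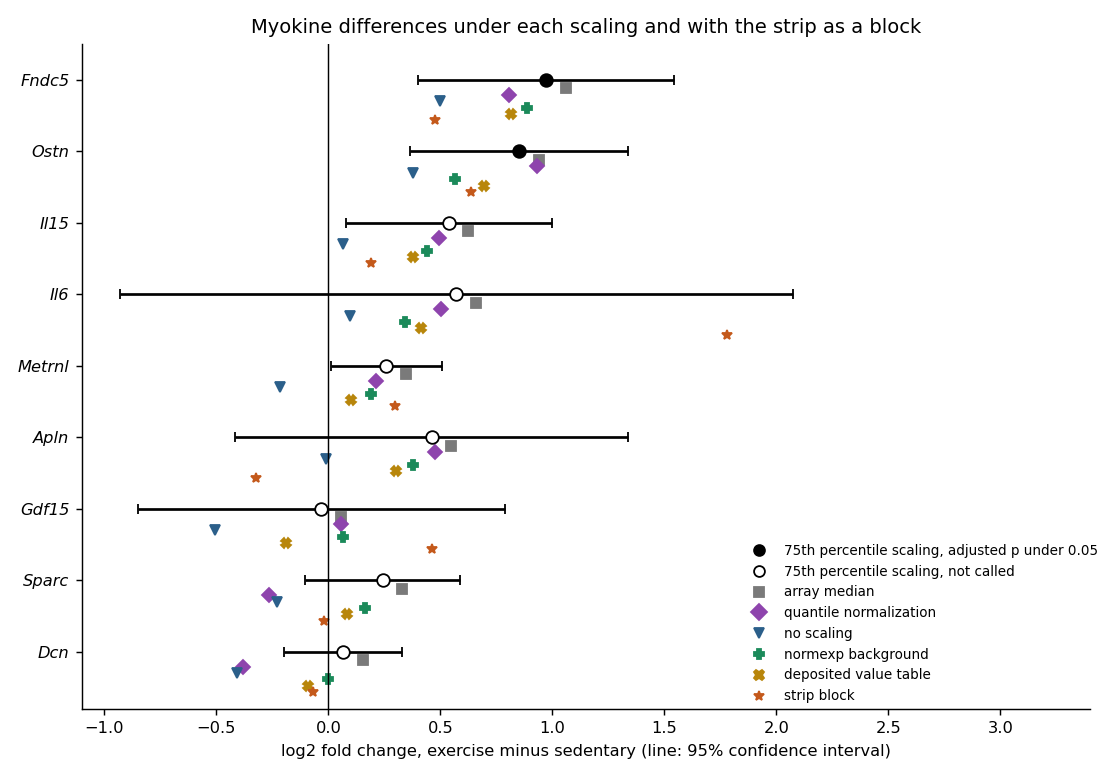
Difference between exercise and sedentary for the 9 members tested, on the log2 scale. Circles with lines are the values with 95% confidence intervals, filled where called. Coloured symbols are the same difference under other scalings and with the strip as a block. Fndc5, Ostn, Il15 and Il6 stay to the right of 0 under all of them, while Dcn, Sparc, Gdf15, Apln and Metrnl have symbols on either side.

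Genes made by the muscle fibre itself moved the same way as Fndc5 and Ostn. Of 7 fibre markers, 5 rose and 0 fell, namely Ckm (muscle creatine kinase) by 1.50, Mb (myoglobin) by 1.20, Acta1 (skeletal actin) by 0.93, Myh4 (a fast myosin heavy chain) by 0.83 and Tnnt3 (fast troponin T) by 0.81, with adjusted p from limma up to 0.037. Des was at 0.15 and Ttn at 0.28, and neither passed. Among all genes and transcripts 11.5% rose and 6.12% fell. All 7 were well above background on every array, as the labelled tissue requires. Their summed level, in units of each array's 75th percentile, was 3700 to 4168 on the exercise arrays and 1800 to 2525 on the sedentary arrays. The part of this shift in the Fndc5 and Ostn differences was not tested. In whole muscle, fewer cells of a type and less RNA per cell cannot be told apart.

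Markers of cells other than the fibre that could also carry myokine RNA mostly did not pass. Of the fibroblast markers 0 of 8 passed, with values from -0.62 (Postn) to 0.63 (Fbn1), and the summed level was 420 to 488 after exercise and 410 to 607 without it. Of the endothelial markers 0 of 7 passed, with a median of -0.03, and of the macrophage markers 0 of 8, with the same median. In the adipocyte list Lep (leptin) passed upwards at 0.35, whereas Cidec was at -0.997, Adipoq at -0.96 and Plin1 at -0.92 without passing. The adipocyte sum ranged from 238 to 625 over the exercised mice and from 423 to 545 over the sedentary mice. Among 4 satellite cell markers tested, all below 0, Pax7 fell by 0.60, and no array had Myf5 well above background. The 5 Schwann cell and nerve markers tested had a median of -0.34. Of 5 smooth muscle markers Myh11 fell by 0.95 and Lmod1 by 0.76 (the latter well above background on 1 exercise and 3 sedentary arrays). The probes of Acta2 gave opposite differences, 1.32 for the probe used and -0.89 and -0.80 for the other two, each without overlap, so no direction is given for it. Red blood cell markers were 0 of 4 called with a median of 0.47. Of the T and NK cell markers 0 of 4 passed, and Cd8a was below that limit throughout.

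**Figure D3:**
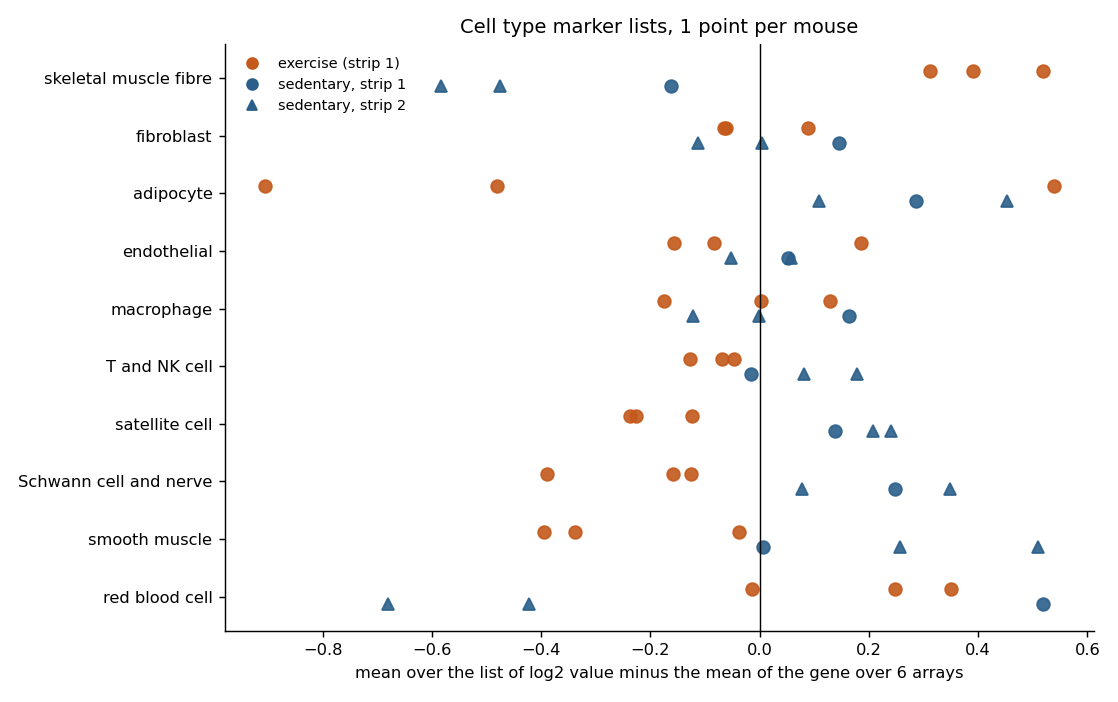
Mean of each marker list in each mouse, as log2 value minus the mean of each gene over the 6 arrays. Orange symbols are exercised and blue symbols sedentary mice, and triangles mark the second strip. The exercised mice lie apart to the right for the fibre list and apart to the left for the satellite cell, Schwann cell and nerve, smooth muscle, and T and NK cell lists. For the fibroblast, adipocyte, endothelial, macrophage and red blood cell lists the groups overlap.

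The interleukins differed in how well they could be measured. Il15, a cytokine that supports lymphocytes and is abundant in muscle, had values of 1.72, 2.17 and 1.94 after exercise and of 1.75, 1.26 and 1.20 without it. The sedentary mouse at 1.75 lay above the lowest exercised mouse, so the groups overlapped. The difference was 0.54 (SE 0.19) and did not pass, with an adjusted p of 0.096 from limma. A second Il15 probe gave 0.19, 0.65 and 0.24 against 0.18, -0.33 and -0.44, a difference of 0.55. These did not overlap, the nearest mice being at 0.19 and 0.18. Within the first strip the differences of these probes were 0.19 and 0.18. Il15 was the member called with weighted arrays, at an adjusted p of 0.026 from limma, beside Fndc5 and Ostn.

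Il6 lay close to the background. Its probe was well above background on 2 exercise and 2 sedentary arrays, at -4.31, -4.69 and -3.41 against -5.92, -4.57 and -3.63. The lowest and the second highest of these values belonged to sedentary mice, and the SD was 0.66 in the exercise group and 1.15 in the sedentary group. The difference of 0.57 (SE 0.62, 95% confidence interval -0.93 to 2.07) did not pass, with an adjusted p of 0.535 from limma. It turned to -0.04 without sedentary replicate 1, and was called at 0.34 with normexp background correction, where the adjusted p was 0.048. The second Il6 probe did not stand well above background in any mouse.

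Metrnl, a circulating relative of meteorin linked with fat browning, had the smallest spread of the members whose groups did not overlap. It was at 1.85, 2.02 and 1.91 after exercise and at 1.63, 1.81 and 1.56 without it. The difference was 0.26 (SE 0.10, 95% confidence interval 0.01 to 0.51), with an adjusted p of 0.122 from limma. The second Metrnl probe also had no overlap, with 0.05, 0.12 and 0.13 against -0.25, 0.00071 and -0.08, a difference of 0.21. With no scaling the Metrnl difference was -0.21.

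Apln encodes the ligand of the receptor Aplnr. It varied little after exercise, at -0.05, -0.12 and 0.24, and widely without it, at 0.35, -0.54 and -1.12. The highest and the lowest mouse were both sedentary. The difference of 0.46 (SE 0.36, 95% confidence interval -0.42 to 1.34) had an adjusted p of 0.392 from limma, and was -0.32 within the first strip and -0.01 with no scaling.

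The stress hormones showed no rise that passed the test. Gdf15 was at -2.42, -2.79 and -1.67 after exercise and at -2.76, -2.03 and -2.00 without it, so that the exercise group held both the highest and the lowest mouse. The difference was -0.03 (SE 0.34, 95% confidence interval -0.85 to 0.79), with an adjusted p of 0.955 from limma, and its sign turned with the array median, quantile normalization, normexp and the strip block. Fgf21 was not well above background on any of the 6 arrays. Its processed signals were 2.56, 4.08 and 2.58 after exercise and 2.45, 2.89 and 4.63 without it, while the dimmest probe well above background was at 11.03 to 13.42 on these arrays. Since both groups were below background, no fold change is given for Fgf21.

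The matrix members did not pass the test. Sparc, a collagen-binding glycoprotein, was at 9.13, 9.20 and 9.18 after exercise and at 9.19, 8.93 and 8.67 without it. The exercised mice differed little among themselves, with an SD of 0.03 against 0.26. The difference was 0.24 (SE 0.14), with an adjusted p of 0.263 from limma, and a second probe gave 0.15. Dcn, a proteoglycan that binds collagen and myostatin, was at 8.54, 8.64 and 8.45 against 8.61, 8.32 and 8.50. Its difference was 0.07 (95% confidence interval -0.20 to 0.33), with an adjusted p of 0.694 from limma. With quantile normalization Sparc was at -0.26 and Dcn at -0.38, and with no scaling Sparc was at -0.23 and Dcn at -0.41, where Dcn passed the test downwards with an adjusted p of 0.036 from limma.

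Of 15 receptor genes for these factors 14 could be tested, of which 1 rose and 2 fell, with a median of -0.02. By the same test 11.5% of all genes and transcripts rose and 6.12% fell. Npr3, the clearance receptor that Ostn binds, was at -0.76, -0.61 and -0.57 after exercise and at -0.02, -0.01 and 0.07 without it. These groups lay well apart, with a difference of -0.66 (SE 0.09) and an adjusted p of 0.023 from limma, and the difference within the first strip was -0.63. Il15ra, which presents Il15 to neighbouring cells, rose by 0.33 with an adjusted p of 0.044 from limma. Its other probes gave 0.23 without overlap and 0.08 with overlap, and the sign of the call turned to -0.14 with no scaling. Il2rb, the signalling chain for Il15, was well above background on 0 exercise arrays and on all 3 sedentary arrays, so its level was at least 1.54-fold lower after exercise. It passed the filter on dim probes only through the sedentary mice, so its adjusted p of 0.039 from limma, and its place among the 2 that fell, rest on exercise signals not well above background. With normexp the Il2rb difference was 0.05, and with the filter on all arrays it was not tested. As measured, it was at -5.74, -5.22 and -4.49 against -4.00, -3.64 and -3.87.

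The receptors that did not pass span the rest of the pathways. For Il6 these are Il6ra at -0.02 and its partner Il6st at -0.02, and the shared chain Il2rg was at 0.11. The Fgf21 receptor parts were at -0.06 for Fgfr1 and at -1.22 for Klb, where the interval reached from -3.12 to 0.69 and the probe was well above background on 5 arrays. Ret, the signalling partner of Gfral, was at 0.53, and Gfral itself, known from the hindbrain, was not well above background on any array. The integrin chains that bind irisin were at -0.31 for Itgav and 0.15 for Itgb5. Kit, a receptor for Metrnl, was at 0.28, Aplnr at -0.17 and Stab1, a scavenger receptor for Sparc, at 0.09.

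Among 10 regulators of these genes 3 rose and 0 fell, with a median of 0.07, beside 11.5% and 6.12% of all genes and transcripts. Socs3, the feedback inhibitor of Il6-type signalling, was at 2.17, 2.15 and 2.50 after exercise and at 1.44, 0.27 and 1.19 without it. It rose by 1.31 (SE 0.31), with an adjusted p of 0.038 from limma, and by 0.84 against sedentary replicate 1. Atf4, a transcription factor of the integrated stress response, rose by 0.53 with an adjusted p of 0.034 from limma, and its second probe gave 0.59. Esrra, the nuclear receptor that works with Ppargc1a, rose by 0.38 with an adjusted p of 0.043 from limma but was at -0.10 with no scaling. Ppargc1a itself was at 0.08. Of the rest, Foxo1 was at -0.29 and Hif1a at -0.29, and neither passed.

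**Figure D4:**
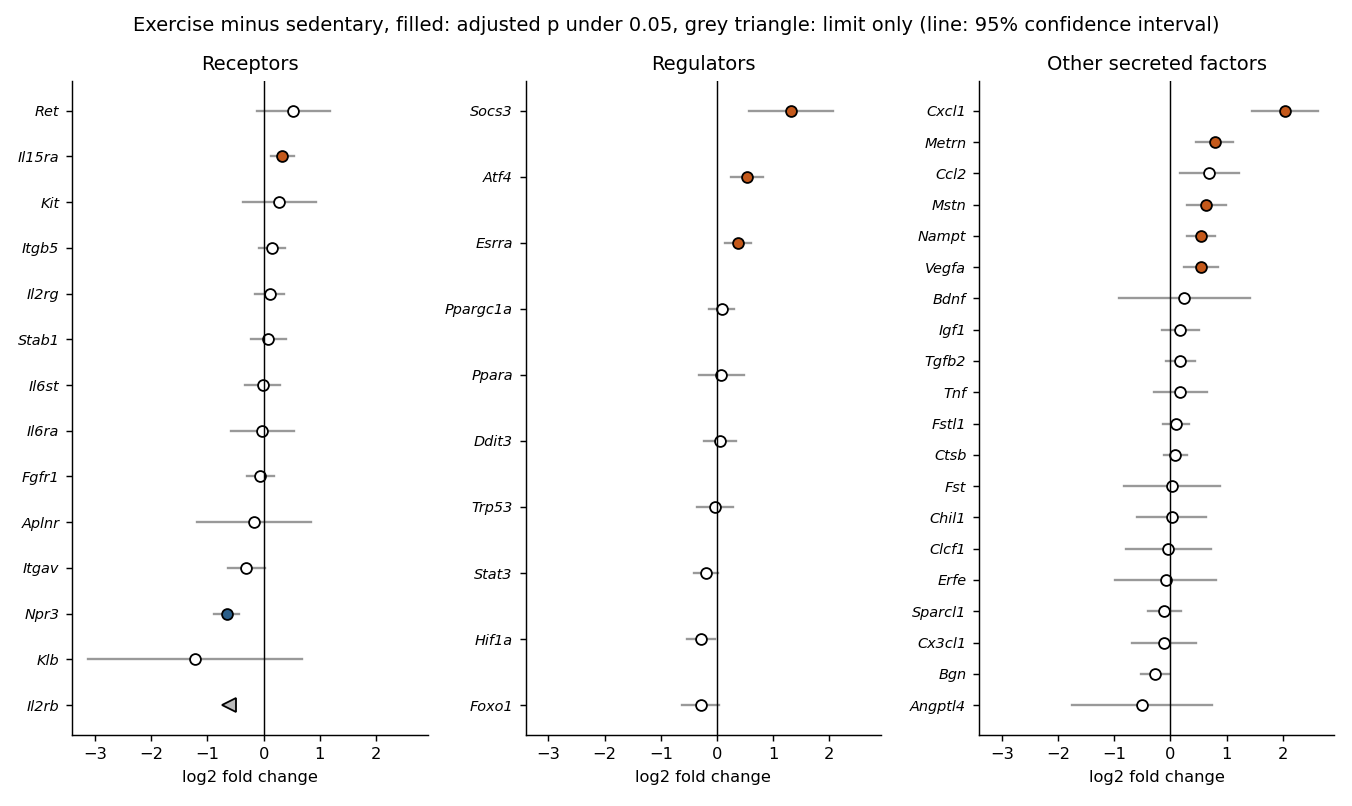
Difference between exercise and sedentary on the log2 scale for the receptors, regulators and other secreted factors, with 95% confidence intervals and filled symbols where the adjusted p is under 0.05. The triangle for Il2rb is a limit and not a value, since its exercise signals were not well above background. Cxcl1 and Socs3 lie farthest to the right among the filled symbols.

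Other secreted factors of muscle were measured for context. Of 24 such genes 20 could be tested, 5 rose and 0 fell, with a median of 0.14. The shares over all genes and transcripts were 11.5% upwards and 6.12% downwards. Cxcl1, a chemokine for neutrophils, was at -0.31, 0.58 and -0.21 after exercise and at -1.93, -2.14 and -1.99 without it. It rose by 2.04 (SE 0.24), a 4.11-fold level, with an adjusted p of 0.023 from limma, and by 1.95 within the first strip. Metrn, the neurotrophic relative of Metrnl, rose by 0.79, Mstn (myostatin, which limits muscle growth) by 0.64 and Nampt, an enzyme of NAD synthesis that is also secreted, by 0.55, with adjusted p from limma up to 0.034. Vegfa, an angiogenic factor, rose by 0.54 with an adjusted p of 0.037 from limma. Its other probes gave 0.59, 0.05 and 0.01, so the probes did not move alike. Under the 5 other scalings the lowest differences were 1.49 for Cxcl1, 0.32 for Metrn, 0.17 for Mstn, 0.073 for Nampt and 0.069 for Vegfa.

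The secreted factors that did not pass include the chemokine Ccl2 at 0.69 (adjusted p = 0.072 from limma), the lipase inhibitor Angptl4 at -0.51, the proteoglycan Bgn at -0.27, the neurotrophin Bdnf at 0.24 and the growth factor Igf1 at 0.18. The Bdnf probe was well above background on 1 exercise and 2 sedentary arrays. Lif, Il7 and Il10 failed the filter on dim probes, and Apela, a further ligand of Aplnr, had no matched probe. Each of the 11 receptor, regulator and secreted genes called lost its call with the strip as a block, at adjusted p from limma between 0.154 and 0.304. They also lost it when any array other than sedentary replicate 1 was left out, at adjusted p up to 0.146, in fits that called at most 1 gene of all tested. Over all single omissions the differences ranged from -0.70 to -0.60 for Npr3 and from 1.76 to 2.20 for Cxcl1. Without sedentary replicate 1, 10 genes of these lists were called higher and 1 lower, in a fit where exercise and strip cannot be told apart.

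By the rule for likeness, the genes whose values followed Ostn most closely over the 6 arrays were Mtg1, a mitochondrial GTPase (Pearson r = 0.992), Arfgef1, a guanine exchange factor of vesicle traffic (0.990), Cmtm2b (0.990), Abcd2, a peroxisomal fatty acid transporter (0.989), and Pdhb, a subunit of pyruvate dehydrogenase (0.989). Ostn was used because it had the lowest p of the members. With 6 points from 2 groups, 389 genes had an r over 0.95. These names therefore describe the order of the mice and carry no test.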

How the data were processed

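The authors hybridized quadriceps RNA of 6 mice to Agilent SurePrint G3 mouse arrays with a single dye, and per the file headers the images were quantified in Feature Extraction 12.1.0.3. The deposited processed signal is an intensity on a linear scale, with background subtracted and spatial trends removed by the authors' software. A further table deposited by the authors holds values, each column of which is an array's processed signal times 1 factor between 1.33 and 1.88. How it was made is not given in the sources used here.

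From the deposited intensities, control spots and spots flagged as outliers were left out, spots of a probe were averaged, and log2 values were set relative to the 75th percentile of their array. The filter asked for signal well above background on 3 or more arrays. It kept 32726 of 56605 probes, and 22 with a missing value were left out. Of all 56605 probes, 34566 were named by matching accessions to a RefSeq table. Of the 25005 genes and transcripts tested, 15745 had a name. The probe with the highest mean stood for a gene. The comparison used limma 3.58.1 (R 4.3.3) without covariates (two-sided, Benjamini-Hochberg over all 25005 genes and transcripts, called at an adjusted p under 0.05). On simulated arrays it recovered 88.5% of 200 genes changed by 2 on the log2 scale and called 10 unchanged ones. That change is larger than the difference of any member, and the simulated noise was independent and held no strip effect. The share recovered therefore does not apply to the members. A gene not well above background in 1 group has only a limit, set against the dimmest signal well above background on each array. Members, the lists of receptors, regulators, secreted factors and markers, and the tests were chosen with earlier results of these data known. All members and receptors were named, and of the regulators and secreted factors those called plus the 5 with the largest differences among the rest. Ppargc1a, Igf1 and Bdnf, outside this rule, were added after their values were seen. Alternatives were array median, quantile, normexp (offset 50) and no scaling, the deposited table, other filters and probe rules, array weights, trend with robust, other thresholds, the replicate number or the strip as a block, and each array left out. Some marker genes are not reported here. Mice are separate animals, and their number limits the precision.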

Additional observations from a re-analysis of the deposited data

How the results depend on the processing

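The 2 members called higher became 1 with quantile normalization, 0 with no scaling, the deposited table, the strip block or the fold change minimum, and 0 to 4 with 1 array left out, the 4 without sedentary replicate 1. The 0 called lower became 1 with no scaling (Dcn). The 9 receptor, regulator and secreted genes called higher became 5 with quantile normalization, 2 with no scaling, the deposited table or the fold change minimum, 0 with the strip block and 0 to 10 with 1 array left out. The 2 called lower became 1 with quantile normalization, a filter on all arrays or the fold change minimum, 16 with no scaling, 5 with normexp, 4 with the deposited table or array weights, 0 with the strip block and 0 to 1 with 1 array left out. Deviations of each gene from its group mean correlated between same-numbered mice at 0.02, 0.08 and 0.04 over all genes tested. The replicate numbers were therefore not taken to pair the mice. With the replicate block 0 members and 0 genes of these lists were called in either direction. That fit called 0 of all 25005 genes and transcripts, with 8591 at an unadjusted p from limma under 0.05. Over all genes the limma calls ranged from 0 to 9741 higher and from 0 to 11280 lower, the extremes being no filter and no scaling.

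Signs turned for uncalled members. Gdf15 was at 0.057 with the array median and with quantile normalization, 0.065 with normexp, 0.46 with the strip block and -0.34 to 0.22 with 1 array left out. Metrnl was at -0.21 and Apln at -0.012 with no scaling, and Apln at -0.32 with the strip block. Sparc was at -0.26 with quantile normalization, -0.23 with no scaling and -0.018 with the strip block. Dcn was at -0.38, -0.41 and -0.071 under these, -0.0028 with normexp, -0.092 with the deposited table and -0.014 to 0.13 with 1 array left out. Il6 ranged from -0.035 to 1.11 with 1 array left out. With no scaling Il15ra was at -0.14 and Esrra at -0.10, and Il2rb was at 0.054 with normexp. The cause was not tested.

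Marker list medians moved by more than 1 SD as follows. With no scaling they were 0.36 for fibre, -0.52 for fibroblast, -0.50 for endothelial, -0.50 for macrophage, -0.60 for T and NK cell, -0.82 for satellite cell, -0.81 for Schwann cell, -1.23 for smooth muscle and -0.0021 for red blood cell markers. With quantile normalization they were 0.34 for fibre, -0.18 for fibroblast and -0.49 for Schwann cell markers. With the deposited table they were -0.21 for fibroblast, -0.18 for endothelial, -0.18 for macrophage, -0.28 for T and NK cell, -0.51 for satellite cell and -0.50 for Schwann cell markers. With the strip block they were 0.58 for fibre, -0.18 for fibroblast, -0.26 for satellite cell, -0.57 for Schwann cell, -0.47 for smooth muscle and -0.19 for red blood cell markers. T and NK cell markers were at -0.037 with the array median, 0.12 with normexp, 0.070 with the mean of probes and 0.26 with the probe of largest SD. Satellite cell markers were at -0.26 with the array median and -0.27 with no filter, and Schwann cell markers at -0.56 with array weights. With 1 array left out the medians ranged from 0.71 to 1.03 for fibre, -0.13 to 0.073 for fibroblast, -0.17 to 0.068 for endothelial, -0.21 to -0.035 for T and NK cell, -0.42 to -0.31 for satellite cell and -0.51 to -0.36 for Schwann cell markers.

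Among the members dim signal limits Il6 and Fgf21, and among the other genes given with a difference it limits Il2rb, Klb, Bdnf and Lmod1. The number of 3 mice a group limits every value.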
